A study of Mus musculus with 94 samples.

Results

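Alas2 and Hba-a1, genes of hemoglobin production in red cells, were followed in mouse brain after the alkylating toxin methylazoxymethanol (MAM). Every probe set of the array whose platform annotation names Alas2 alone or Hba-a1 alone was taken, which gave 2 probe sets of 2 genes, out of 45101 probe sets and 18194 genes named by a single-gene probe set. Each gene has 1. Hba-a1 is also named, together with its near-identical copy Hba-a2, by 3 further probe sets, which are not members because they cannot separate the copies but are shown beside them. The genes were chosen by their difference between MAM and vehicle in Mgmt-/- brain on these same arrays, so that contrast, and the differences between genotypes that include its MAM or vehicle arrays, are given here as a description with no test. Differences between sets of animal numbers, read below as laboratories, and relations within groups were tested in both genotypes. The choice used neither directly, but the study's filter set aside probes whose effects differed between laboratories. The name erythroid held for Alas2 in that its level rose and fell with that of the shared globin probe sets from animal to animal. With lists of erythroid regulators, red cell genes and singly measured globin genes Alas2 had no relation that passed. The Hba-a1-alone probe set followed neither Alas2 nor the shared globin probe sets and is therefore called by its annotation below.

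RNA from the right side of the brain of male 11-week-old C57BL6 mice was measured on Affymetrix whole-genome mouse arrays. The mice were wild type (wt) or Mgmt-/- on the same C57BL6 background, the latter lacking the methyltransferase that removes methyl groups from the O6 position of guanine. Each animal received 1 intraperitoneal injection of MAM or of its vehicle, dilute acetic acid in saline, and was killed by guillotine 6, 24, 48 or 168 hr later, which gave 16 groups. Of 94 arrays 93 were used, 46 of wt and 47 of Mgmt-/- brain, with 6 arrays in 13 groups and 5 in wt vehicle at 48 hr, wt MAM at 168 hr and Mgmt-/- MAM at 168 hr. The array left out, of a Mgmt-/- MAM animal at 168 hr, had a mean log2 level of 13.38 over 10 liver genes (4.36 to 7.08 on the others) and of 5.29 over 6 neuronal genes (11.52 to 12.19 on the others), so its label as brain goes against its values. The numbering of the animals has 2 runs per genotype (number sets 1 and 2), read here as the 2 laboratories that treated them, although no label names the laboratory. All levels are the deposited log2 values, differences are in log2 units, and no source says that the animals were perfused, so that the tissue can hold blood. In such bulk tissue, fewer cells of a type and less RNA per cell cannot be told apart.

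Alas2 encodes the erythroid form of 5-aminolevulinate synthase, the enzyme of the first step of heme synthesis, which developing red cells use in place of the housekeeping form Alas1. Hba-a1 and Hba-a2 encode the alpha chain of adult hemoglobin, which pairs with beta chains encoded by the Hbb genes. Immature red cells released into blood, the reticulocytes, still hold these messages, so in a brain that was not perfused they are usually read as a sign of blood, although globin messages have also been found in brain cells. In developing red cells both kinds of gene are turned on by GATA1 and KLF1, factors that bind GATA and CACCC elements.

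On RefSeq's GRCm38.p6 annotation Alas2 lies on chromosome X (150547417 to 150570622) and Hba-a1 on chromosome 11 (32283672 to 32284486), with Hba-a2 downstream at 32296492 to 32297310, its start 12820 bases from that of Hba-a1. The 250 bases before each start are shown because the members are read as genes under common erythroid control, and because they make plain how alike the alpha-globin copies are. Both members matched RefSeq's promoter table by symbol, and the windows are chrX:150547167-150547416 for Alas2 and chr11:32283422-32283671 for Hba-a1, both on the plus strand. Capitals mark matches to 4 motifs on either strand: a GATA motif (GATAA or GATAG with an A or T before it), the letters CACCC bound by KLF1, the CCAAT box, and a TATA motif (TATAAA or TATAAG). A match on the minus strand appears as its reverse complement.
Alas2: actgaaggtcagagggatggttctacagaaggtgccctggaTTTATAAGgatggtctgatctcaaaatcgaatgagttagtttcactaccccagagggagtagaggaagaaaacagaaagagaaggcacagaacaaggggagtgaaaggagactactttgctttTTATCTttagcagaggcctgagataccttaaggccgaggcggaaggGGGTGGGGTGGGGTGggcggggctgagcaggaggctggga
Hba-a1: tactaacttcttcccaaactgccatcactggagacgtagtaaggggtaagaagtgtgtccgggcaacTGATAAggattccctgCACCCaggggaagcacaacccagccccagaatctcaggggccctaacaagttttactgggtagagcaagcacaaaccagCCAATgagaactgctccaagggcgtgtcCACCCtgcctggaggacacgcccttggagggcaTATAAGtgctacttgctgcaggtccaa
The Alas2 window holds 1 GATA match on the minus strand 86 bases before the start, 3 adjoining CACCC matches on the minus strand at 40, 35 and 30 bases, and 2 overlapping TATA matches at 209 and 207 bases, but no CCAAT. The Hba-a1 window holds 1 GATA match at 183 bases, CACCC matches at 167 and 60, 1 CCAAT at 88 and 1 TATA at 27. Of 32851 such windows in RefSeq, 26.5% hold the GATA letters, 52.0% CACCC, 33.8% CCAAT and 17.0% TATA, and 287 (0.87%) hold all 4 as Hba-a1 does. The window of Hba-a2 (chr11:32296242-32296491, plus strand) shares a run of 247 of its 250 bases with that of Hba-a1, displaced by 3 bases, and holds the same matches. These are letter matches in the reference and were not measured here.

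The Alas2 level varied widely between animals of 1 group. Over 93 arrays the mean was 5.68, at or above the mean of 54.3% of all probe sets, and the arrays ran from 4.66 to 6.55 with a median of 5.68. The within-group SD of 0.282 was at or above that of 95.6% of all probe sets, whose median SD was 0.156. The Hba-a1-alone probe set had a mean of 3.90, at or above that of 19% of all probe sets, and ran from 3.48 to 4.93 with a median of 3.88. Its SD was 0.196. Such a low mean is near the floor of this array, and a level in 1 probe set cannot be set against that in another because their probes bind differently. The 3 probe sets naming both alpha-globin genes had means of 7.82, 12.77 and 12.33, and the 1 naming the adult beta-globin genes 12.01. Of the former, the one with a mean of 12.77 is used below as the example.

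In wt brain Alas2 stayed between 4.74 and 6.55 in all 8 groups. With vehicle its mean was 5.60 ± 0.19 (SD, n = 6, from 5.37 to 5.89, median 5.60) at 6 hr and 5.84 ± 0.27 (n = 6, from 5.57 to 6.26, median 5.75) at 24 hr. At 48 hr the 5 vehicle values were 5.50, 5.97, 5.35, 5.65 and 5.35, and at 168 hr the mean was 5.82 ± 0.19 (n = 6, from 5.53 to 6.05, median 5.87). These vehicle groups all overlapped. After MAM the mean was 5.65 ± 0.15 (n = 6, from 5.43 to 5.79, median 5.70) at 6 hr, 6.05 ± 0.34 (n = 6, from 5.65 to 6.55, median 6.03) at 24 hr and 5.43 ± 0.38 (n = 6, from 4.74 to 5.77, median 5.53) at 48 hr. At 168 hr the 5 MAM values were 6.24, 6.19, 6.14, 5.58 and 5.71, of which 3 lay above every vehicle value. Thus at each time the MAM and vehicle values of wt brain overlapped, and in the MAM group at 48 hr 2 of 6 animals, the lower at 4.74, lay below every vehicle animal.

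In Mgmt-/- brain the Alas2 values with vehicle had a mean of 5.50 ± 0.59 (SD, n = 6, from 4.66 to 6.24, median 5.63) at 6 hr, 5.86 ± 0.35 (n = 6, from 5.41 to 6.37, median 5.83) at 24 hr, 5.97 ± 0.39 (n = 6, from 5.60 to 6.54, median 5.81) at 48 hr and 5.71 ± 0.18 (n = 6, from 5.54 to 6.06, median 5.66) at 168 hr. The 6 hr group was the most scattered of the 16, with 2 animals of number set 2 lowest. After MAM the mean was 5.85 ± 0.24 (n = 6, from 5.60 to 6.16, median 5.85) at 6 hr, 5.76 ± 0.18 (n = 6, from 5.47 to 5.97, median 5.76) at 24 hr and 5.10 ± 0.25 (n = 6, from 4.70 to 5.49, median 5.10) at 48 hr. The 5 values at 168 hr were 5.15, 4.94, 5.68, 4.71 and 4.87. At 48 hr all 6 MAM animals lay below all 6 vehicle animals, and at 168 hr 4 of 5 did, while at 6 and 24 hr the groups overlapped. The share of all probe sets whose groups lie apart in this way was not counted, here or below.

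**Figure D1:**
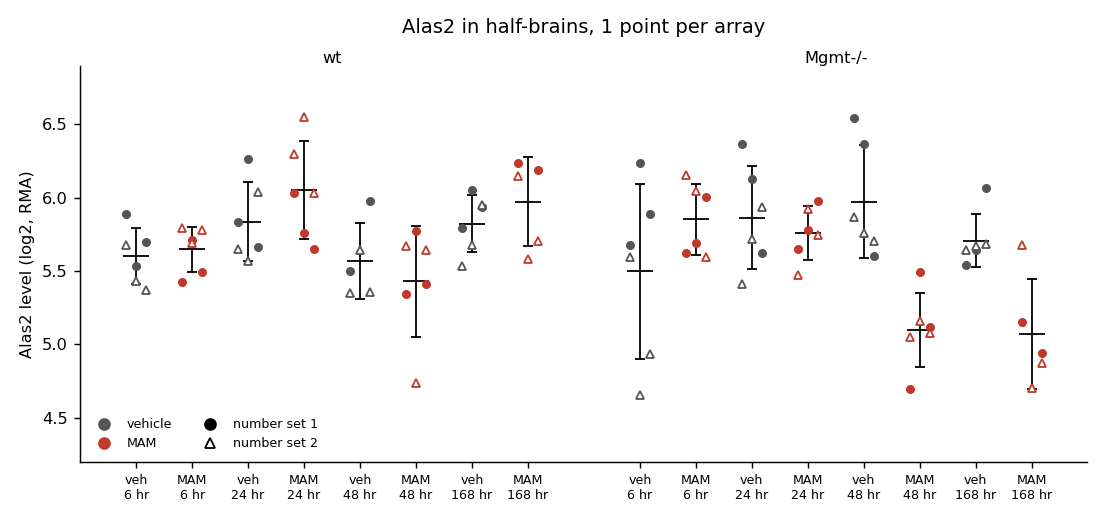
Level of the Alas2 probe set (log2, vertical axis) on each of 93 arrays, by genotype, agent and time, with horizontal lines at group means and bars of 1 SD; filled circles are number set 1 and open triangles number set 2. The Mgmt-/- MAM groups at 48 and 168 hr have the lowest means, 5.10 and 5.07, against 5.43 to 6.05 in the other groups.

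Ordered from lowest to highest, the Alas2 group means began with Mgmt-/- MAM at 168 hr (5.07) and 48 hr (5.10), followed by wt MAM at 48 hr (5.43), Mgmt-/- vehicle at 6 hr (5.50) and wt vehicle at 48 hr (5.57). They ended with wt MAM at 168 hr (5.97), then the Mgmt-/- vehicle group of 48 hr (5.97) and last the wt MAM group of 24 hr (6.05), a span of 0.98. Every group overlapped its neighbor in this order. A gap of 0.33 above Mgmt-/- MAM at 48 hr was the 1 gap in the order larger than the SD of the group below it.

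The Hba-a1-alone probe set spanned only 0.38 over its group means, from 3.71 in wt MAM at 48 hr to 4.09 in Mgmt-/- vehicle at 6 hr, and its order was not that of Alas2. In wt brain at 48 hr the 5 vehicle values were 4.30, 3.89, 3.97, 3.97 and 3.93, and the 6 MAM values ran from 3.62 over a median of 3.72 to 3.79. All 6 MAM animals lay below every vehicle animal there. In the limma fit described below, 5356 of 35550 kept probe sets had an unadjusted p under 0.05 in this contrast. That is not the share of probe sets whose groups lie apart, which was not counted. Whether the separation is particular to this probe set is therefore not known. In Mgmt-/- brain the values at 48 hr had a mean of 3.83 ± 0.27 with vehicle (SD, n = 6, from 3.48 to 4.14, median 3.90) and 4.03 ± 0.09 with MAM (n = 6, from 3.91 to 4.15, median 4.03), which overlapped. At 168 hr they had a mean of 3.99 ± 0.33 with vehicle (n = 6, from 3.66 to 4.61, median 3.93), and the 5 MAM values were 4.07, 3.63, 3.85, 3.94 and 4.93. The highest arrays of this probe set were scattered over Mgmt-/- groups, with 4.93 after MAM at 168 hr and 4.86 with vehicle at 6 hr. All neighboring groups in its order overlapped.

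The probe sets naming both alpha-globin genes showed the pattern of Alas2 over the groups. For the example probe set in Mgmt-/- brain at 48 hr, vehicle gave 13.00 ± 0.16 (SD, n = 6, from 12.84 to 13.28, median 12.96) and MAM 11.96 ± 0.42 (n = 6, from 11.19 to 12.42, median 12.01). At 168 hr vehicle gave 12.81 ± 0.09 (n = 6, from 12.65 to 12.89, median 12.84) and the 5 MAM values were 11.53, 11.20, 12.41, 11.70 and 12.12. At neither time did the groups overlap. The lowest group mean was in Mgmt-/- MAM at 168 hr and the highest in wt MAM at 24 hr in all 3 shared alpha-globin probe sets and in the beta-globin one, as for Alas2.

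**Figure D2:**
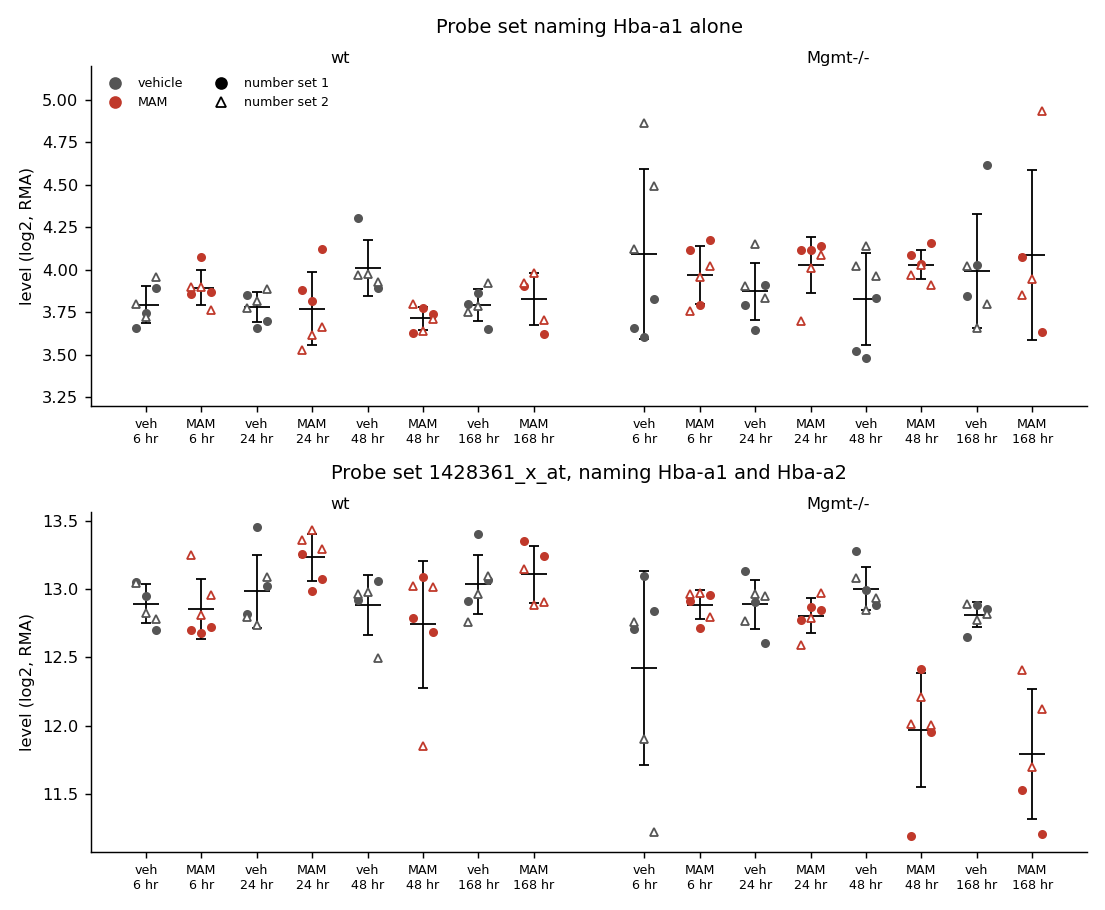
Levels (log2, vertical axes) of the probe set naming Hba-a1 alone (top) and of the example probe set that names Hba-a1 and Hba-a2 (bottom), on each of 93 arrays by genotype, agent and time, with group means and bars of 1 SD. The lower panel falls from 13.00 with vehicle to 11.96 with MAM at 48 hr and from 12.81 to 11.79 at 168 hr in Mgmt-/- brain, while the upper panel has group means between 3.71 and 4.09 throughout.

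Whether MAM changed either member in wt brain was tested with limma at each time. These arrays were not apart from the choice of the genes. The study's model and laboratory filter took in both genotypes, and it went on with probes that MAM changed significantly in Mgmt-/- mice alone. A lack of calls in wt brain is therefore not independent of that choice. Alas2 differed by 0.05, 0.22, -0.16 and 0.16 between MAM and vehicle at 6, 24, 48 and 168 hr, and none of these passed the test. Their 95% intervals were -0.33 to 0.42, -0.11 to 0.54, -0.51 to 0.19 and -0.13 to 0.46. The adjusted p was 0.681 at 48 hr and 1 at 168 hr. At 6 and 24 hr the probe set was set aside by the number-set filter, which asked for a p above 0.15 in a joint F test of interactions. That p was 0.0076 and 0.074, so at 24 hr a difference between number sets was not shown at 0.05. Without that filter limma gave an adjusted p of 1 and 0.871 at these times. At 24 hr number set 1 gave -0.11 and number set 2 gave 0.54. For the Hba-a1-alone probe set MAM minus vehicle was 0.10, -0.01, -0.29 and 0.03. It was set aside at the first 3 times, and for the groups that did not overlap at 48 hr (95% interval -0.50 to -0.09) limma without the filter gave an unadjusted p of 0.00739 and an adjusted p of 0.211.

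Of all kept probe sets, 0% were called in wt brain by limma at 6, 24, 48 and 168 hr (adjusted p under 0.05 and a fold above 1.3), with 990, 1560, 5356 and 1285 below 0.05 before adjustment. At 24 hr 67 were called with array weights and 368 in number set 2 alone, neither member among them. The shared alpha-globin probe sets differed by 0.24 to 0.37 and the beta-globin probe set by 0.27 at 24 hr, with adjusted p of 0.658 to 0.671 in limma where they were kept, so these are values and not changes that passed the test. Averaged over the 4 times in 1 fit of 46 wt arrays, MAM minus vehicle was 0.07 ± 0.08 (SE) for Alas2 and -0.04 for the Hba-a1-alone probe set, with adjusted p of 0.86 and 0.812, and 0% of probe sets were called although 4037 were below 0.05 unadjusted.

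In Mgmt-/- brain MAM minus vehicle for Alas2 was 0.36 ± 0.18 (SE) at 6 hr, -0.11 ± 0.16 at 24 hr, -0.87 ± 0.16 at 48 hr (1.83-fold lower) and -0.62 ± 0.14 at 168 hr (1.54-fold lower). Alas2 is among the genes past the thresholds above at 48 and 168 hr, which is how it was chosen and no result. The share of kept probe sets past them in this contrast was 1.83% at 6 hr, 0.699% at 24 hr, 0.461% at 48 hr and 0.493% at 168 hr. Alas2 was no longer past them in either number set alone at 48 or 168 hr, with the RNA index described below as a covariate at 48 hr, or on leaving out any 1 of 8 of the 11 arrays at 168 hr. For the Hba-a1-alone probe set the values were -0.12, 0.16, 0.20 and 0.09, and it was past the thresholds at no time.

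The shared alpha-globin probe sets were lower after MAM at the same times. Their MAM minus vehicle in Mgmt-/- brain was 0.39 to 0.47 at 6 hr, -0.25 to -0.08 at 24 hr, -1.26 to -1.04 at 48 hr (2.05- to 2.39-fold lower) and -1.18 to -1.02 at 168 hr (2.03- to 2.26-fold lower). The beta-globin probe set gave 0.57, -0.06, -1.23 and -1.14. At 48 hr all 6 MAM animals, and at 168 hr all 5, lay below every vehicle animal in these 4 probe sets. All 4 were past the thresholds at 48 hr and set aside by the number-set filter at 168 hr, again as a description. Of the 2 probe sets naming Hbb-b2 alone, an adult beta-globin gene, 1 gave -0.27 at 48 hr and -0.40 at 168 hr and was past the thresholds at 168 hr, and the other gave -0.06 and -0.21 and was not.

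**Figure D3:**
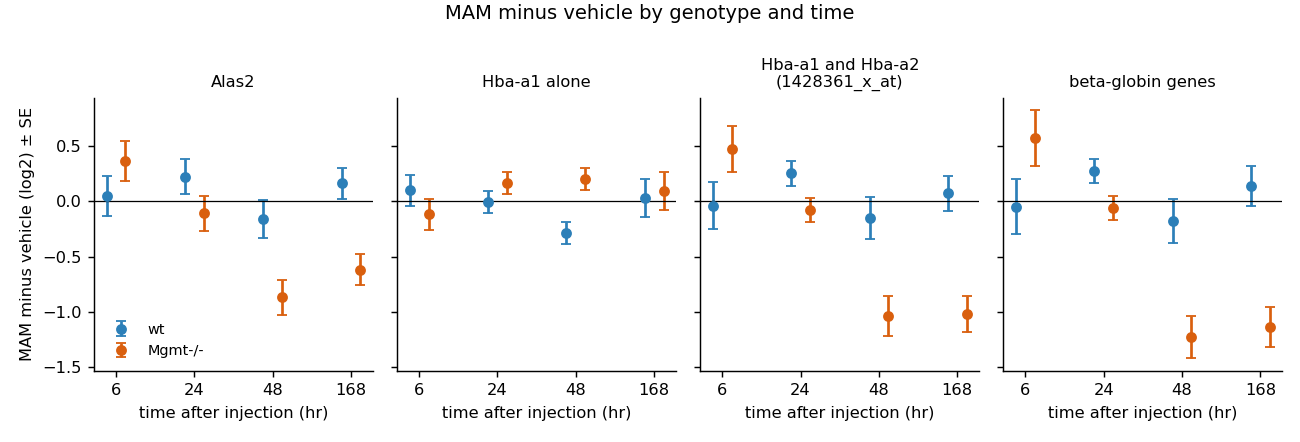
MAM minus vehicle (log2, vertical axis; bars are 1 SE) against time after injection in wt (blue) and Mgmt-/- (orange) brain, for Alas2, the Hba-a1-alone probe set, the example alpha-globin probe set and the beta-globin one. Alas2 at 48 hr is -0.87 in Mgmt-/- and -0.16 in wt brain, and the Hba-a1-alone points lie between -0.29 and 0.20.

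The Mgmt-/- difference was also taken in each number set. For Alas2 it was -1.07 in the first and -0.68 in the second at 48 hr, -0.70 and -0.58 at 168 hr, and -0.16 and 0.87 at 6 hr. The joint F test of the number-set interactions gave an unadjusted p of 0.78, 0.63 and 0.0076 at these times. A difference between number sets was thus shown at 6 hr and not at 48 or 168 hr. Beside the 6 hr value of number set 2 stood 2 vehicle animals with 4.66 and 4.93 for Alas2, 11.90 and 11.22 for the example alpha-globin probe set, and 10.80 and 10.13 for beta-globin. The wt MAM animal at 4.74 for Alas2 at 48 hr was likewise lowest of its group in the example alpha-globin probe set (11.85) and in beta-globin (11.03). Thus these animals, from vehicle and MAM groups, were low in Alas2 and in globin together.

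Other measures also differed between the Mgmt-/- groups. The RNA 3'/5' index, the 3' minus 5' log2 level of the Gapdh and Actb control probe sets, was 0.43 with vehicle and 0.63 with MAM at 6 hr, 0.48 and 0.63 at 24 hr, 0.42 and 0.54 at 48 hr, and 0.55 and 0.52 at 168 hr. With this index as a covariate, a fit added after the data were seen, the Alas2 difference at 48 hr was -0.70. Of the blood cell lists, 8 neutrophil genes had mean levels of 4.97 to 5.35 with vehicle and 4.72 to 6.24 with MAM at 48 hr. At 168 hr they had 4.73 to 5.10 and 4.64 to 5.82. The 7 platelet genes had 5.74 to 5.82 with vehicle and 5.77 to 6.01 with MAM at 48 hr, with means of 5.78 and 5.88, higher with MAM. At 168 hr they had 5.67 to 5.89 and 5.71 to 5.85. All of these ranges overlapped. The 7 lymphocyte genes had 5.13 to 5.41 and 5.28 to 5.37 at 48 hr, and 5.16 to 5.41 and 5.12 to 5.48 at 168 hr. Among them Ighm, the heavy chain of immunoglobulin M, differed by -0.82 ± 0.14 (SE) at 168 hr in the probe set with its highest mean. It was past the thresholds at that time. The other genes of that list differed by -0.05 to 0.18, and the median difference over the list was 0.0896. The 10 brain endothelium genes had 7.44 to 7.57 with vehicle and 7.25 to 7.42 with MAM at 168 hr, which did not overlap, and 7.29 to 7.72 and 6.85 to 7.54 at 48 hr, which did. The 6 genes of the meninges had 7.01 to 7.17 and 6.70 to 7.02 at 168 hr. Of the 6 genes of pericytes and smooth muscle, the pericyte gene Rgs5 differed by -0.49 at 168 hr and was past the thresholds. The other genes of that list differed by -0.15 to 0.11, and the median difference over the list was 0.0397.

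Outside blood and vessels, 5 microglia genes had 7.80 to 8.02 with vehicle and 7.46 to 7.72 with MAM at 168 hr, and 8 genes of the glucocorticoid response 8.42 to 8.51 and 8.81 to 9.50, neither overlapping. Of the latter 7 were kept and 5 were higher past the thresholds, where 0.493% of all kept probe sets were past them in either direction. Among the 5 was Sgk1, a kinase induced by glucocorticoids, higher by 1.57. The 4 astrocyte genes had 10.55 to 10.70 with vehicle and 10.31 to 10.60 with MAM at 168 hr, which overlapped. Among these the water channel Aqp4 differed by -0.52 and the other genes by -0.15 to 0.09. The part of RNA quality and of each of these lists in the Alas2 difference was not tested.

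Between genotypes, as a description, Alas2 in Mgmt-/- minus wt brain was 0.20, -0.30, -0.33 and -0.90 after MAM and -0.10, 0.03, 0.39 and -0.12 with vehicle at 6, 24, 48 and 168 hr. The difference of the MAM effects, Mgmt-/- minus wt, was 0.31 ± 0.26 (SE), -0.32 ± 0.22, -0.72 ± 0.23 and -0.79 ± 0.20. At 48 hr both the higher vehicle level and the lower MAM level of Mgmt-/- brain entered it, and at 168 hr mainly the lower MAM level. For the example alpha-globin probe set the difference of effects was -0.89 ± 0.26 at 48 hr and -1.09 ± 0.22 at 168 hr, and for the Hba-a1-alone probe set 0.50 ± 0.14 and 0.06 ± 0.24.

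Whether the members differed by number set or with time alone was tested across all arrays of a genotype. Number set 2 minus number set 1 was -0.08 for Alas2 and -0.03 for the Hba-a1-alone probe set in wt brain (adjusted p = 0.486 and 0.598, limma), where 1.04% of all probe sets were called. In Mgmt-/- brain it was -0.21 and 0.12 (adjusted p = 0.105 and 0.312), where 1.64% were called. Over the 4 times in wt vehicle brain Alas2 means ran from 5.57 to 5.84 (adjusted p = 0.521, limma F test) and the Hba-a1-alone means from 3.78 to 4.01 (unadjusted p = 0.0177, adjusted p = 0.257), beside 0.0754% of probe sets called. Neither member passed a test of number set or of time with vehicle.

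Within groups, where neither genotype, agent, time nor number set varies, Alas2 followed the shared globin probe sets and the Hba-a1-alone probe set did not. The deviations of Alas2 from its group and number-set mean had a Pearson r of 0.74, 0.77 and 0.76 over 93 arrays with the 3 shared alpha-globin probe sets and 0.74 with beta-globin (permutation p = 1e-05, the smallest that 100000 permutations can give; adjusted p = 0.000117 over 47 relations). Spearman's rho was 0.75 to 0.81, and r was 0.70 to 0.74 without the 2 arrays farthest out. Of the 45100 other probe sets these 4 had the highest r with Alas2. The relation with the mean of the 3 alpha-globin probe sets was 0.86 in wt and 0.72 in Mgmt-/- brain, and 0.79 and 0.76 in number sets 1 and 2 (permutation, adjusted p of at most 0.00012 over 12 relations).

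Between the members themselves r was -0.17 (rho -0.07, permutation p = 0.364 and 0.606), with 0.02 in wt, -0.25 in Mgmt-/- brain, -0.05 in number set 1 and -0.26 in number set 2. With the shared alpha-globin probe sets the Hba-a1-alone probe set had an r of -0.02, -0.02 and -0.12, and with beta-globin of -0.11, all without passing the permutation test. By comparison, the mean of the shared alpha-globin probe sets and beta-globin, the chains of 1 protein, had an r of 0.97. The RNA 3'/5' index had an r of -0.20 with Alas2 (permutation p = 0.147) and -0.04 with the Hba-a1-alone probe set.

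**Figure D4:**
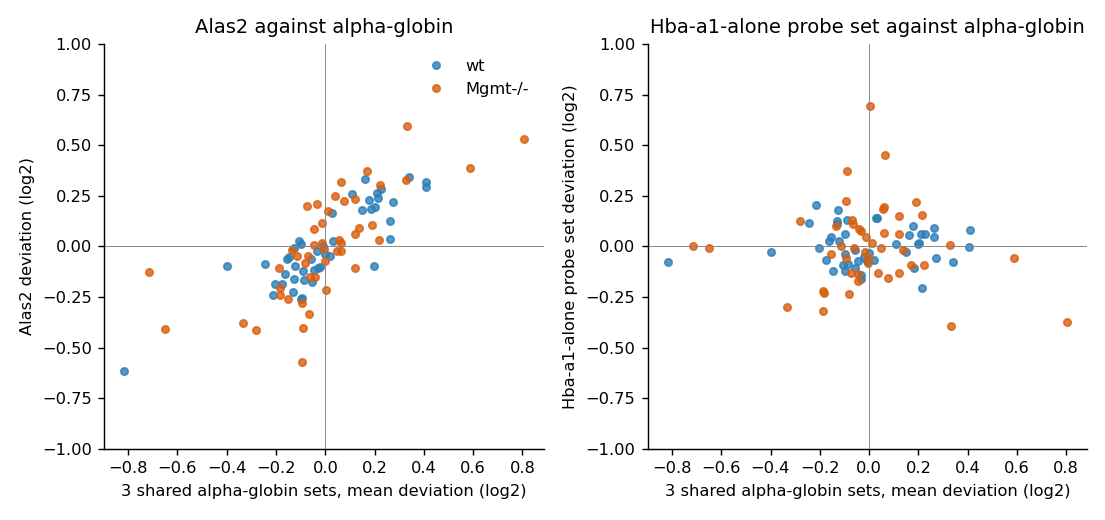
Deviations from the mean of group and number set (log2) of Alas2 (left) and of the Hba-a1-alone probe set (right), each against the mean deviation of the 3 probe sets naming Hba-a1 and Hba-a2; 1 point is 1 of 93 arrays, wt in blue and Mgmt-/- in orange. The left cloud rises along the diagonal (r = 0.77) and the right one is flat (r = -0.05).

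After the shared globin probe sets, the single-gene probe sets most like Alas2 within groups were Snapin (r = 0.60), of synaptic vesicle fusion, Ephx1 (0.57), a detoxifying epoxide hydrolase, and Hbb-b2 (0.57). Then came Wars, Kat5, Hacd3 and Fmnl2 (each 0.55) and Ugp2, Mpv17l2 and Glo1 (each 0.54). Most like the Hba-a1-alone probe set were Actn3 (0.73), an actinin of fast muscle, Stap1 and Prl7a1 (each 0.72), Mtdh (0.71) and Uba7, Ss18l1, Trbv1, Sccpdh, Zbtb7c and Syt6 (each 0.70). Of the globin genes measured singly, those most related to Alas2 by the probe set with the highest mean of each gene were Hbb-b2 (0.13), the embryonic Hba-x (0.02), Hba-a2 (-0.06) and the embryonic Hbb-bh1 (-0.08). No globin gene and no gene of heme synthesis was among the 10 most like the Hba-a1-alone probe set. These are the top values of many and share the arrays' preparation, so they describe likeness over 93 arrays only.

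Of 9 listed genes of heme synthesis 8 were measured. In MAM minus vehicle of Mgmt-/- brain none beside Alas2 was past the thresholds at 48 hr (7 kept) or 168 hr (8 kept). Of all kept probe sets 0.461% and 0.493% were past them there. In wt brain no gene of the list was. Between genotypes at 48 hr, as a description, Cpox was past them in the difference of MAM effects, beside 0.9% of kept probe sets. Cpox, Fech and Urod were lower past them in Mgmt-/- minus wt brain after MAM, beside 9.33%. Cpox, of a late step of the pathway, differed by -0.51 ± 0.13 (SE) in Mgmt-/- brain at 48 hr in 1 of its 3 probe sets, which was not past the thresholds, against -0.02 and 0.13 in the others. Fech, which inserts iron in the last step, had an r of 0.44 with Alas2 within groups and a Mgmt-/- difference of -0.14 at 48 hr and -0.04 at 168 hr. Alas1, the housekeeping synthase, had an r of 0.32 and differences of 0.10 and 0.04, Ppox an r of 0.27 and Uros of 0.22. The mean of the list without Alas2 had an r of 0.40 with Alas2 (permutation, adjusted p = 0.0321; rho 0.26, adjusted p = 0.116). The median difference over the list in Mgmt-/- brain was -0.0545 at 48 hr and -0.0263 at 168 hr, against 0.00448 and -0.00641 over all kept probe sets.

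Of 23 listed genes of the red cell membrane and enzymes 17 were measured, and 1 of the 10 kept at 6 hr was called in Mgmt-/- brain, where 1.83% of all kept probe sets were. This was Bpgm, whose product makes the regulator of oxygen release, and which was lower by 0.45 in 1 of its probe sets. None was called in wt brain. With Alas2 the highest r in the list were those of Sptb (0.35), the beta chain of spectrin, Bpgm (0.29), Slc25a37 (0.27), which brings iron into mitochondria, and Ank1 (0.24), and brain cells express these genes too. Slc4a1, the anion exchanger that marks red cells, had an r of -0.19. The median difference over the list was -0.00679 at 48 hr and 0.00956 at 168 hr in Mgmt-/- brain. Of 8 erythroid regulators 4 were kept at 6 hr, and 1 of these was called in Mgmt-/- brain, beside the same 1.83%: Bcl11a, lower by 0.59 in 1 of its probe sets.

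Of the lists for other cells, the means of brain endothelium (r = 0.43), pericytes and smooth muscle (0.40), meninges (0.42), choroid plexus (0.37) and oligodendrocytes (0.41) rose with Alas2 within groups (permutation, adjusted p = 0.0127, 0.00658, 0.0125, 0.0421 and 0.0232). By rho the choroid plexus and oligodendrocyte relations did not pass (adjusted p = 0.0528 and 0.0542). Neutrophils (0.06), platelets (0.07), lymphocytes (-0.13), liver (0.05) and neurons (-0.06) had no relation with Alas2 that passed. Nor had the singly measured globin genes (-0.06), the erythroid regulators (-0.14) or the red cell list (0.15). By contrast, the Hba-a1-alone probe set rose with the means of the other globin genes measured singly (0.48), the erythroid regulators (0.48), the red cell list (0.43), lymphocytes (0.42) and platelets (0.33), with adjusted p of 0.00368, 0.00113, 0.00787, 0.0128 and 0.0125, and fell with heme synthesis (-0.25, adjusted p = 0.0477). By rho the relations with lymphocytes and heme synthesis did not pass (adjusted p = 0.0858 and 0.0528). Several genes of those lists, like this probe set, had levels near the floor of the array, for example Slc4a1 at 4.16 and Gata1, the erythroid master regulator, at 4.15, and the part of that floor in the relations was not tested.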

How the data were processed

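RNA of 94 animals was hybridized to 1 array each, and for every probe set the authors gave a log2 value from RMA, which corrects background, quantile-normalizes and summarizes probes (affy package, version not given in the sources used here, nor whether all arrays were normalized together). The deposited log2 table was taken without further normalization, 45101 probe sets with 0 missing. Their number of arrays, not a depth, limits the precision. Groups came from the sample titles. Symbols are those of the platform annotation, and 34958 probe sets name 1 gene.

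Time points were fitted one by one in limma (version 3.58.1, under R 4.3.3) with genotype, treatment, their interaction and number set. A probe set was kept if the 3 interactions with number set, tested jointly by an ordinary F test, had p above 0.15, as did 39.3, 47.9, 78.8 and 71% at 6, 24, 48 and 168 hr. A probe set was called at a Benjamini-Hochberg adjusted p under 0.05 over the kept probe sets and a fold above 1.3. A list member was called when any of its single-gene probe sets was. Differences of a probe set that was set aside come from a fit of all probe sets. Other fits took all arrays of 1 genotype. Within-group relations used deviations from group and number-set means, with two-sided permutation within these strata, and list means used 1 probe set per gene, that with the highest mean, without the members. The fits were tested on simulated data of known answer. Plots used matplotlib 3.10.9 (Python 3.11.15).

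The text names the members, probe sets naming Hba-a1 with another gene, called genes of the globin, heme synthesis and red cell lists with the 4 of each most related to Alas2, and the 10 genes most like each member. Cpox, Slc4a1, Gata1, Bcl11a, Ighm, Rgs5, Sgk1 and Aqp4 were named after their values were seen. Members, lists and named-gene rule were chosen with earlier results of these data known. Replicates are separate animals. Alternatives were no filter, an ordinary linear model, array weights, cyclic loess, the RNA index as a covariate, each number set alone and each array left out. For Mgmt-/- brain they were chosen after seeing the data.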

Additional observations from a re-analysis of the deposited data

Results flagged for a closer look

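In 32 groups of 5 or 6 arrays, 16 per member, the gap of the highest or lowest array to the next was tested, and 3 passed where chance gives about 1 in 20. Alas2 in Mgmt-/- vehicle brain at 168 hr had its highest array at 6.06, with the next at 5.68. The Hba-a1-alone probe set had its highest array of wt vehicle brain at 48 hr at 4.30, with the next at 3.97, and its lowest of Mgmt-/- MAM brain at 24 hr at 3.70, with the next at 4.01.

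The effects of genotype and treatment differed between the number sets at 6 hr for Alas2 (joint F test of the 3 interactions in an ordinary linear model, unadjusted p = 0.0076, n = 24 arrays). For the Hba-a1-alone probe set they differed at 6, 24 and 48 hr (unadjusted p = 0.0015, 0.0092 and 0.0033, n = 24, 24 and 23 arrays). The number-set filter, which uses this test, kept 39.3% of all 45101 probe sets at 6 hr, 47.9% at 24 hr and 78.8% at 48 hr. Being set aside at 6 or 24 hr is therefore not particular to the members. The share of all probe sets with a p as low as theirs was not counted. At 6 hr in Mgmt-/- brain MAM minus vehicle was -0.16 and 0.87 for Alas2 and 0.33 and -0.58 for the Hba-a1-alone probe set in number sets 1 and 2, opposite in sign within each set.

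The Mgmt-/- MAM array of 168 hr that was not used, with the liver genes high, had an Alas2 level of 7.55, above the highest of the others, 6.55, beside 3.94 for the Hba-a1-alone probe set, 11.76 for the example alpha-globin probe set and 11.07 for beta-globin.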

How the results depend on the processing

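No paired analysis was possible because each animal number occurs once and pairs no arrays across groups. None of 150 alternatives for MAM against vehicle in wt brain called a member. In wt brain at 24 hr number sets 1 and 2 alone gave -0.11 and 0.54 for Alas2 and 0.20 and -0.22 for the Hba-a1-alone probe set. The latter turned in sign at 168 hr with the RNA index as a covariate (-0.0209) and in number set 1 alone (-0.00473), and in the number-set difference with wt vehicle arrays alone (0.0229). In Mgmt-/- brain, with settings chosen after seeing the data, Alas2 was past the thresholds in no number set alone at 48 hr (-1.07 and -0.68) or 168 hr (-0.70 and -0.58), nor at 48 hr with the RNA index (-0.70), nor at 168 hr with the liver-like array included (-0.22). At 6 hr it gave -0.16 and 0.87 in the number sets. The Hba-a1-alone probe set gave 0.16 with array weights and 0.33 and -0.58 in the number sets at 6 hr, 0.34 and -0.0304 at 24 hr, 0.48 and -0.0747 at 48 hr, and -0.31 in number set 1 at 168 hr. The cause of these shifts was not tested.

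Leaving out 1 array, Alas2 ranged in wt brain from -0.00 to 0.11 at 6 hr, 0.11 to 0.30 at 24 hr, -0.23 to -0.03 at 48 hr and 0.10 to 0.24 at 168 hr, and in Mgmt-/- brain from 0.20 to 0.49, -0.20 to -0.00, -0.98 to -0.77 and -0.79 to -0.55 (past the thresholds in 3 of 11, without the highest MAM animal or without either of the lower 2 vehicle animals of number set 1). The Hba-a1-alone probe set ranged in wt brain from 0.04 to 0.14, -0.08 to 0.03, -0.32 to -0.20 and -0.00506 to 0.083, and in Mgmt-/- brain from -0.21 to 0.02, 0.10 to 0.22, 0.13 to 0.26 and -0.12 to 0.22.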
